A study of Mus musculus with 6 samples.

Results

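The chemokines, their signalling receptors and the atypical receptors that bind chemokines were followed through 6 mouse liver libraries. Members were chosen by gene symbol alone, as every Ccl, Cxcl, Ccr, Cxcr or Ackr gene with a number, together with Xcl1, Xcr1, Cx3cl1 and Cx3cr1. The rule found 57 of the 18443 genes listed in any of the libraries, of which 35 were ligands, 18 were receptors and 4 were atypical receptors.

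Liver RNA of male C57BL/6 mice (C57BL/6J in the methods), aged 6 to 8 weeks in the labels, went into 6 sequencing libraries from 2 models, with 1 library for each condition. In the diet model the mice received a standard diet (SD), a high fat diet (HFD) for 16 weeks, or HFD with JT003, a peptide agonist of the adiponectin receptors AdipoR1 and AdipoR2 that was injected daily at 500 μg per kg for 4 weeks. In the CCl4 model they received corn oil, 20% CCl4 in corn oil at 5 ml per kg every 3 days for 6 weeks, or CCl4 with the same daily dose of JT003 for 3 weeks. The labels name no engineered allele. All mice were fasted for 8 hours before the livers were taken, and groups had 6 mice. Whether a library holds 1 liver or several is not given in the sources used here. The HFD library carries HFD in its title and NASH as its disease state. The text on the sequencing also names HFD, while the methods describe a NASH model in which a methionine and choline deficient diet was added to HFD. Whether mice without JT003 were given vehicle injections is not given in the sources used here. The libraries held 19374236 to 20184539 reads assigned to genes. Albumin (Alb), the defining product of hepatocytes, took 5.29% to 7.62% of them, so the labelled tissue and its main marker did not conflict.

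Chemokines are small secreted proteins that bind heparan sulphate on vessel walls and guide leukocytes along concentration gradients. Their receptors span the membrane and signal through inhibitory G proteins, so that each leukocyte type follows the ligands its receptors read. In injured liver the Ccl2 and Ccr2 pair is known for drawing monocytes from blood, Cxcl1 and Cxcl2 for drawing neutrophils through Cxcr2, and Cxcl9 and Cxcl10 for drawing T cells through Cxcr3, whereas Cxcl12 is made by stromal and vessel cells of the resting organ and holds cells that bear Cxcr4. Atypical receptors take up chemokines without the usual signal. In whole liver, fewer cells of a type and less RNA per cell cannot be told apart.

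Most of the family was scarce in liver RNA. Of the 57 members, 23 reached 10 counts in all 6 libraries, 16 reached 10 counts in 1 to 5 libraries and 18 did so in none. Among the 35 ligands, 14 reached 10 counts everywhere and 13 nowhere, among the 18 receptors 6 and 5, and among the 4 atypical receptors 3 and 0. The undetected ligands included Ccl3, Ccl7, Ccl8, Ccl11, Ccl17, Ccl22, Cxcl5 and Xcl1, each with at most 9 counts in any library, and the undetected receptors were Ccr3, Ccr4, Ccr6, Ccr8 and Ccr10, with at most 5. A count of 0 allows up to 3 counts, or 0.149 to 0.155 CPM (counts scaled to library size) in these libraries, so low members were below detection at this depth and were not shown to be absent. Ccl4 and Ccr9 just reached the limit with 10 counts in a library, and Ccl22 just missed it with 9.

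Cxcl12 was the most abundant member in every library on the FPKM scale, which divides by transcript length and depth. Its level was 91.8 FPKM in SD, 107.2 in HFD, 159.1 in HFD with JT003, 84.5 in corn oil, 81.2 in CCl4 alone and 116.0 with CCl4 and JT003. Cxcl12 made up 68.1%, 61.1%, 70.2%, 63.9%, 48.9% and 54.9% of the summed ligand FPKM in the same order. Ccl9, a CC ligand of Ccr1, stood at 9.41, 9.59, 10.1, 12.6, 40.8 and 16.4 FPKM in that order. It ranked next after Cxcl12 except in HFD and in CCl4 with JT003, where Cxcl1 ranked above it at 12.5 and 19.4 FPKM. The other members of the 10 highest were Ccl27a, Ccl6, Cxcl10, Ccl19, Cxcl9, Cxcl16 and Ccl5, none of which passed 14.1 FPKM in any library.

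Summed receptor FPKM was far below summed ligand FPKM. The 18 receptors summed to 7.62 FPKM in SD, 7.7 in HFD, 8.34 in HFD with JT003, 5.49 in corn oil, 8.94 in CCl4 alone and 11.1 with CCl4 and JT003, beside ligand sums of 134.8, 175.4, 226.5, 132.3, 166.2 and 211.2. Cxcr2, the neutrophil receptor for Cxcl1 and Cxcl2, led the receptors in 5 libraries. The dot plot of FPKM by gene shows how far Cxcl12 stands above the rest and how the order of the other members moved between libraries.

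**Figure D1:**
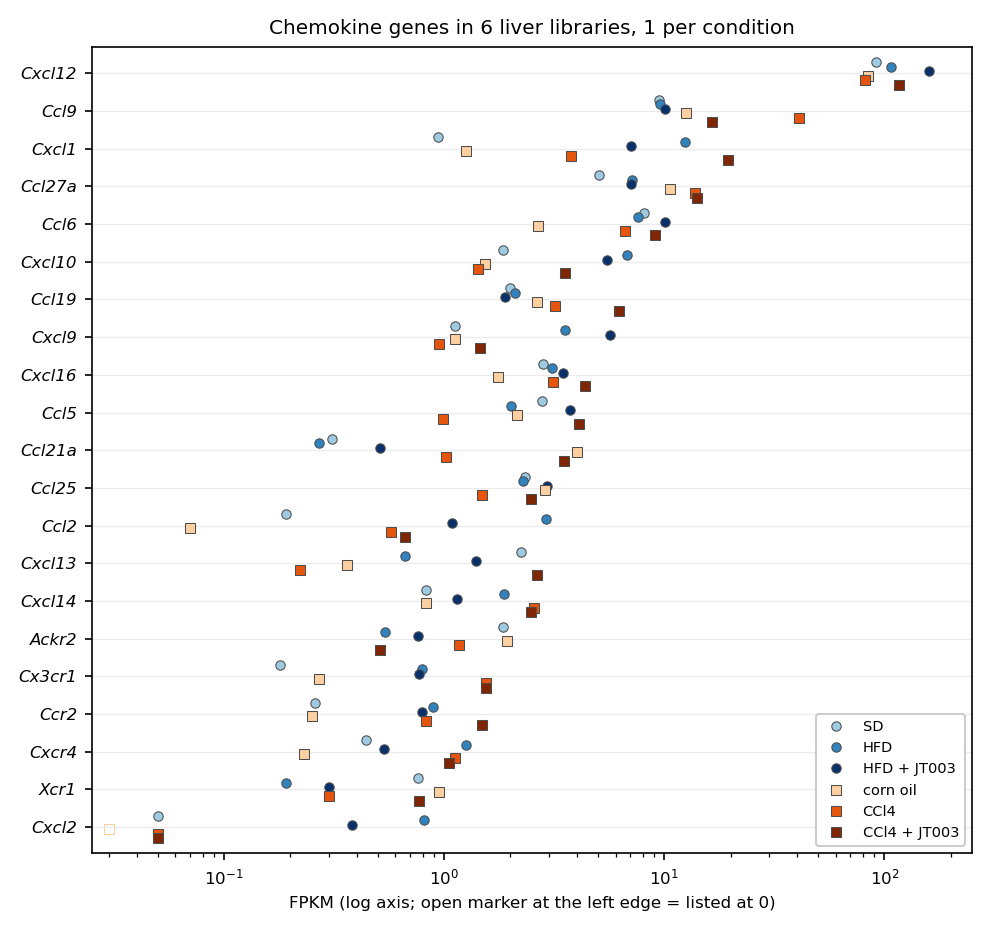
FPKM (log axis) of the 21 named members, 1 marker per library and 6 per gene, with circles for the diet model and squares for the CCl4 model. Cxcl12 lies between 81.2 and 159.1 FPKM, while Cxcl1 ranges from 0.94 in SD to 19.4 in CCl4 with JT003, and Cxcl2 in corn oil is listed at 0.

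The first comparison asked which members differed in the liver after HFD. For each gene the whole-number counts of both libraries were set against their scaled depths by the exact conditional binomial test (two-sided), and p was adjusted by Benjamini-Hochberg over every gene that had a read. Genes were called where the adjusted p was below 0.001 and the libraries differed by 1 or more on the log2 scale. No condition has a second library, so each test compares 2 libraries and not conditions, and the 95% intervals cover counting error only.

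HFD liver held more RNA of 5 chemokine ligands and of the receptors Ccr2 and Cx3cr1 than SD liver. Of the 31 members with at least 10 counts in SD or HFD, 7 were called higher, beside 3.76% of all genes with that many counts, and 3 were called lower, beside 3.16%. The higher ligands were Cxcl1, Cxcl2, Ccl2, Cxcl9 and Cxcl10, and the lower ones were Cxcl13, Xcr1 and Ackr2. Over these 31 members the median log2 ratio was 0.02, beside 0.00 over all genes with as many counts.

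Cxcl1 activates neutrophils through Cxcr2. SD held 18 counts of it, HFD held 233 and HFD with JT003 held 133. It was 12.1-fold higher in HFD than in SD (95% interval 7.52 to 20.9; exact binomial test, adjusted p = 8.33e-45). Its neighbour Cxcl2, which acts on the same receptor, had 1, 17 and 8 counts, in the same order, and was called higher in HFD. Its ratio rests on the single count in SD and has an interval that runs from 2.5 to 667. Cxcr2 itself had 167, 114 and 73 counts and was not called in HFD over SD, at a ratio of 0.64 (interval 0.50 to 0.82). Both ligands were thus called higher and their receptor was not.

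Ccl2 is the main attractant of monocytes that bear Ccr2. SD held 3 counts of it, HFD held 45 and HFD with JT003 held 17. The ratio of HFD to SD was 14.1 (interval 4.52 to 70.8; exact binomial test, adjusted p = 3.33e-09). Ccr2 had 19, 64 and 57 counts, which put HFD 3.16-fold above SD (1.87 to 5.59). Cx3cr1, the fractalkine receptor of monocytes and resident macrophages, had 14, 59 and 58 counts and was 3.96-fold higher (2.18 to 7.67), whereas its only ligand Cx3cl1 had 23, 28 and 26 counts. Both monocyte receptors had nearly the same counts in the HFD libraries with and without JT003.

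Of the interferon-inducible ligands of Cxcr3, Cxcl9 and Cxcl10 were higher. Cxcl9 stood at 66, 204 and 329 counts in SD, HFD and HFD with JT003, and was 2.90-fold higher in HFD than in SD (2.19 to 3.89). Cxcl10 had 41, 148 and 120 counts and was 3.39-fold higher (2.38 to 4.91). Cxcl11, the other ligand of this receptor, had 25, 39 and 46 counts and was not called, and Cxcr3 had 6, 5 and 16 counts.

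Of the members lower in HFD, Cxcl13 attracts B cells through Cxcr5, Xcr1 is the receptor of cross-presenting dendritic cells for Xcl1, and Ackr2 clears inflammatory CC chemokines. Cxcl13 fell from 52 counts in SD to 15 in HFD, 0.27-fold (0.14 to 0.49), and Cxcr5 had 16 and 13. Xcr1 fell from 69 to 17 counts, 0.23-fold (0.13 to 0.40). Ackr2 fell from 110 to 31 counts, 0.26-fold (0.17 to 0.40; exact binomial test, adjusted p = 8.79e-12), and had 46 in HFD with JT003. If mice of a group were assumed to vary by a coefficient of variation of 0.2, edgeR's exact test kept 2 of the 10 calls, those of Cxcl1 and Ccl2, and at 0.4 it kept 0.

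**Figure D2:**
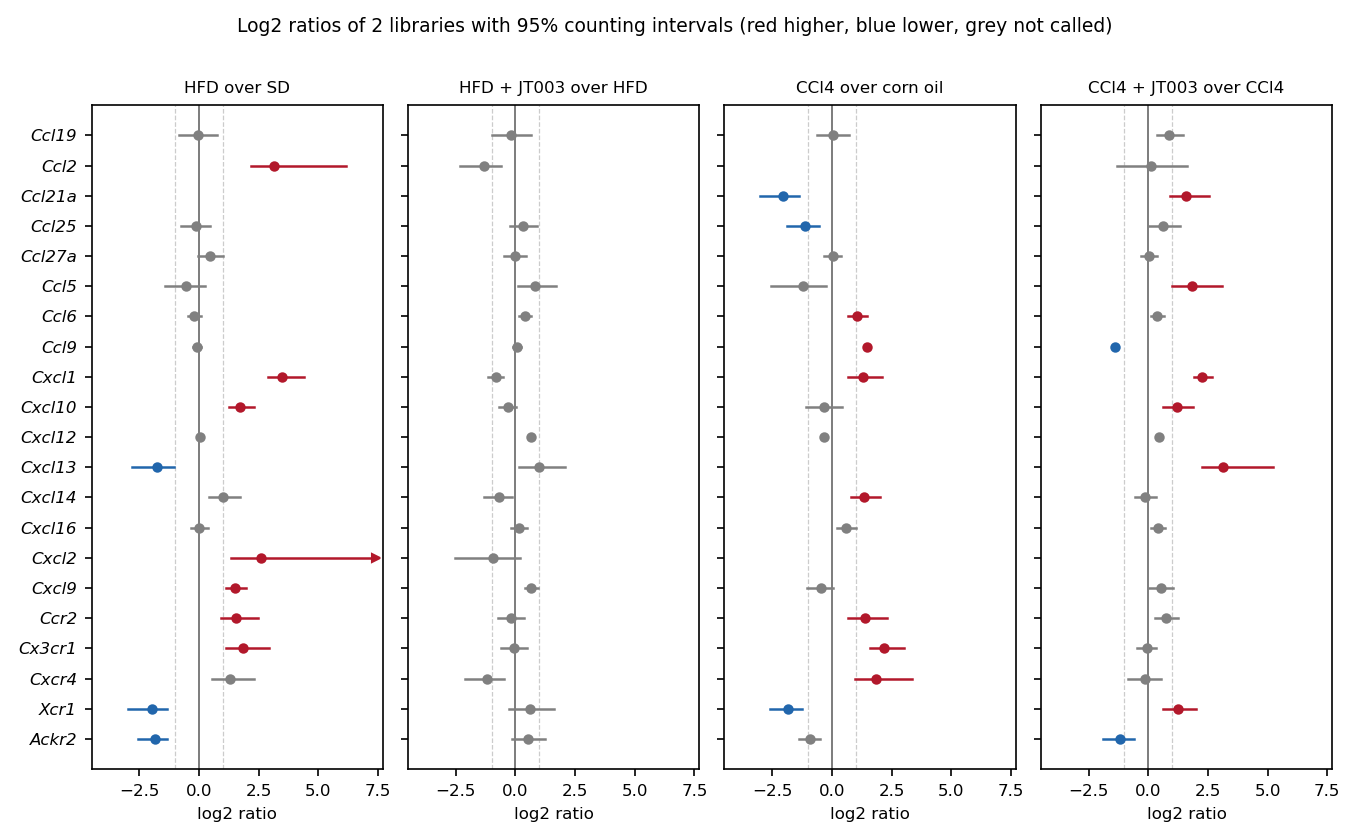
Log2 ratios (horizontal axis) of the 21 named members in the 4 main comparisons, with 95% counting intervals; red and blue points were called higher and lower, grey points were not called, and pairs with fewer than 10 counts in both libraries are left out. The HFD with JT003 over HFD panel has no called member, while CCl4 with JT003 over CCl4 has 6 higher and 2 lower.

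The promoter sequences of 3 called members, Cxcl1, Cxcl10 and Ccl9, are shown. They were picked because each window holds a motif of the factors that inflammatory signals switch on. Cxcl1 was called in both models and Ccl9 in the CCl4 model. Cxcl10 was called in HFD over SD and in CCl4 with JT003 over the CCl4 library, but not in CCl4 over corn oil. RefSeq windows on GRCm38.p6, from 250 bases before to 50 bases after the start, were found for 43 of the 57 members. They were searched on both strands for a kB motif (the NF-kB consensus, allowed to overlap itself on the other strand), for GAAANNGAA (resembling an interferon response element) and for TGANTCA (AP-1, which reads the same on both strands). The kB motif was found for 18.6% of the members with a window, beside 5.14% of all 27025 genes in the table. GAAANNGAA was found for 18.6% beside 9.76%, and TGANTCA for 18.6% beside 8.97%. The 250 bases before the start are printed from 5′ to 3′ on the gene's strand, with the motif matches in capitals. Cxcl1 lies at chr5:90890995-90891244 on the plus strand, Cxcl10 at chr5:92348890-92349139 and Ccl9 at chr11:83578637-83578886 on the minus strand.
Cxcl1: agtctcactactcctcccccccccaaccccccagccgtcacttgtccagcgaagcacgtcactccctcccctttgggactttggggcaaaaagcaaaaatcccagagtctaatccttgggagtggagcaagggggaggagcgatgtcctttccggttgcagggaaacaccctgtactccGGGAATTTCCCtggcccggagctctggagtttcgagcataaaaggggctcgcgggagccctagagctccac
Cxcl10: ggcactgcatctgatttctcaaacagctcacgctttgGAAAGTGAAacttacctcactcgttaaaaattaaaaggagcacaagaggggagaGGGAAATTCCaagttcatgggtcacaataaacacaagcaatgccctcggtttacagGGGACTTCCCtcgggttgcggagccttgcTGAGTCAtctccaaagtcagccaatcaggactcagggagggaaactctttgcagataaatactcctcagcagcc
Ccl9: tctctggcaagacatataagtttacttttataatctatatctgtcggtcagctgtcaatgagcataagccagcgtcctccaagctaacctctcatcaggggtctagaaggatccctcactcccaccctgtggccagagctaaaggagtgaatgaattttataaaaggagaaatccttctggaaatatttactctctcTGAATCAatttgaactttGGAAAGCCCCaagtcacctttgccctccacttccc
In Cxcl1 the capitals are a pair of overlapping kB matches, one on each strand, that start 71 and 70 bases before the start site, and Cxcl2 holds a match with the same letters, GGGAATTTCC, 97 bases before its own. Cxcl10 holds, from 5′ to 3′, a GAAANNGAA match, 2 kB matches and a TGANTCA match. Ccl9 holds a TGANTCA match and a kB match on the opposite strand. The kB motif was not limited to members called higher. Ackr2, called lower in HFD over SD and in CCl4 with JT003 over CCl4, holds kB matches too. So do the undetected receptors Ccr3 and Ccr6. A match is a run of letters and was not tested for binding.

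The second comparison asked how the family looked in HFD liver after JT003. No member was called. Of the 33 members with at least 10 counts in HFD or HFD with JT003, 0 were called higher and 0 lower by the exact binomial test, beside 0.974% and 1.14% of all genes with as many counts. Without adjustment 12 of them had p below 0.05, and edgeR's exact test with an assumed coefficient of variation of 0.2 or 0.4 called 0. The adjusted p was below 0.001 for 4 members, among them Cxcl12, Cxcl9 and Cxcl1, and their log2 ratios were smaller than 1.

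These members went in different directions. SD held 5125 counts of Cxcl12, HFD held 5689 and HFD with JT003 held 9026, a ratio of 1.56 to HFD (1.51 to 1.61; exact binomial test, adjusted p = 1.34e-154). Cxcl9 stood at a ratio of 1.59 (1.33 to 1.90) on the counts given above. Cxcl1 was the one of the 4 that was below HFD, at a ratio of 0.56 (0.45 to 0.70), though still 6.83-fold above SD (4.16 to 11.9). Summed FPKM of sinusoidal endothelial markers was 90.6 in SD, 98.8 in HFD and 122.7 in HFD with JT003. That of Kupffer cell markers was 105.8, 112.6 and 163.5. Both sums were higher with JT003, as Cxcl12 was, with list median log2 ratios of 0.22 and 0.57 beside 0.64 for Cxcl12. The sum of stellate cell and myofibroblast markers went the other way, at 15.6, 38.5 and 23.8. The part of these cells in the Cxcl12 ratio was not tested.

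With JT003 several other members lay between their SD and HFD values, short of a call. Ccl2 with JT003 stood at 0.37-fold of HFD (0.20 to 0.66; exact binomial test, adjusted p = 0.00202), short of the threshold. Cxcr4, the receptor for Cxcl12, had 16, 45 and 19 counts and stood at 0.42-fold of HFD (0.23 to 0.73; exact binomial test, adjusted p = 0.00584). Both passed when the adjusted p was allowed up to 0.05. Ccr2 and Cx3cr1 were at 0.88-fold (0.60 to 1.27) and 0.97-fold (0.66 to 1.42) of HFD. Xcr1 had 69, 17 and 27 counts, and Cxcl13 had 52, 15 and 32.

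Set against SD, HFD liver with JT003 had 5 members called higher of 34 with at least 10 counts, beside 4.07% of all genes, and 3 called lower, beside 3.52%. The higher ones were Ccr2, Cx3cr1, Cxcl1, Cxcl9 and Cxcl10, and the lower ones were Ackr2, Xcr1 and Cxcr2. Cxcr2 with JT003 was at 0.40-fold of SD (0.30 to 0.53). This comparison shares the SD library with HFD over SD, so the values stand side by side and give no independent evidence.

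The third comparison asked which members differed after CCl4. CCl4 liver held more RNA of 4 ligands and 3 receptors than corn oil liver. Of the 31 members with at least 10 counts in 1 of the libraries, 7 were called higher, beside 6.08% of all genes, and 3 lower, beside 3.12%. Higher were the ligands Ccl6, Ccl9, Cxcl1 and Cxcl14 and the receptors Ccr2, Cx3cr1 and Cxcr4, and lower were Ccl21a, Ccl25 and Xcr1. The median log2 ratio of the 31 members was 0.17, beside 0.01 over all genes.

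Ccl9 and Ccl6 are related CC ligands of Ccr1, made mainly by myeloid cells, and their coding sequences are 64.6% identical. Corn oil held 741 counts of Ccl9, CCl4 held 2496 and CCl4 with JT003 held 966, and CCl4 was 2.76-fold above corn oil (interval 2.54 to 3; exact binomial test, adjusted p = 3.18e-149). Ccl6 had 74, 191 and 252 counts, a ratio of 2.11 (1.61 to 2.80) for CCl4. In the diet libraries Ccl9 had 576, 575 and 610 counts, a ratio of 0.94 for HFD over SD (0.83 to 1.05). Ccr1, their receptor, had 4, 14 and 21 counts in the CCl4 model and was not called.

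The monocyte receptors were higher in CCl4 as they were in HFD. Ccr2 stood at 18, 61 and 104 counts in corn oil, CCl4 and CCl4 with JT003, a ratio of 2.77 for CCl4 (1.62 to 4.99). Cx3cr1 had 20, 118 and 113 counts, a ratio of 4.83 (2.99 to 8.20). Their ligands were low, with 1, 9 and 10 counts for Ccl2 and 21, 34 and 28 for Cx3cl1. Cxcr4 had 8, 41 and 37 counts, a ratio of 4.2 (1.94 to 10.4), against 4573, 4508 and 6294 counts for its ligand Cxcl12, which was at 0.81-fold of corn oil (0.77 to 0.84). Cxcl14, an epithelial and stromal CXC ligand without an agreed receptor, had 30, 96 and 89 counts, a ratio of 2.62 (1.72 to 4.09), and Cxcl1 had 23, 72 and 357, a ratio of 2.56 (1.58 to 4.30).

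Of the lower members, Ccl21a, a Ccr7 ligand of lymphatic vessels, fell from 66 counts in corn oil to 18 in CCl4, 0.22-fold (0.12 to 0.38). Its coding sequence is 99.5% identical to that of Ccl21b, so reads may be split between the pair and both values are uncertain. Ccl25, a Ccr9 ligand that guides gut-homing T cells, fell from 60 to 32, 0.44-fold (0.28 to 0.68). Ccl25 was not called when libraries were scaled by total reads. Xcr1 fell from 83 to 27, 0.27-fold (0.17 to 0.42). With an assumed coefficient of variation of 0.2 or 0.4 between mice, edgeR's exact test kept 0 of the 10 calls.

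HFD over SD and CCl4 over corn oil share no library. Of the 10 members called in each, 4 were called in both and in the same direction, which is 40.0% of each list: Cxcl1, Ccr2 and Cx3cr1 higher and Xcr1 lower. Over all genes 151 were called in both and in the same direction, 16.3% of the 924 called in HFD over SD and 12.1% of the 1251 called in CCl4 over corn oil. The difference between these shares was not tested. Cxcl9 and Cxcl10 were higher in HFD and had log2 ratios of -0.47 (interval -1.02 to 0.06) and -0.31 (-1.08 to 0.41) in CCl4. Ccl6 and Ccl9 were higher in CCl4 and had log2 ratios of -0.21 (-0.48 to 0.07) and -0.09 (-0.26 to 0.08) in HFD. The differences between the models were not tested.

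**Figure D3:**
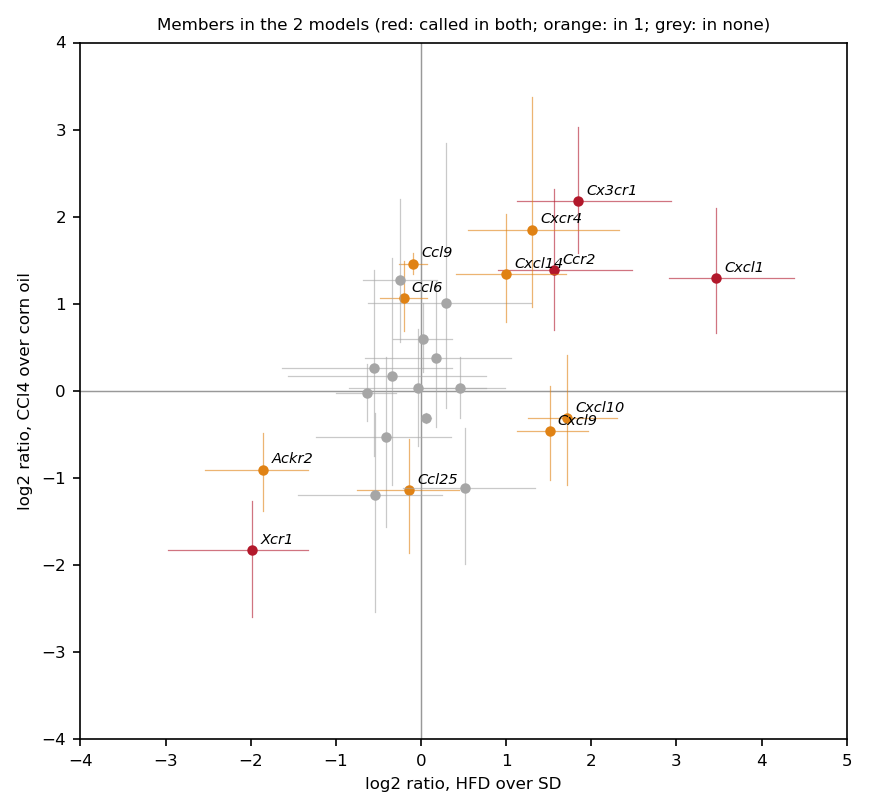
Log2 ratio of CCl4 over corn oil (vertical axis) against that of HFD over SD (horizontal axis) for members with at least 10 counts in 1 library of each pair, with 95% counting intervals. The 4 red members were called in both pairs, the orange ones in 1, and Cxcl9 and Cxcl10 lie to the right near 0 on the vertical axis while Ccl6 and Ccl9 lie above near 0 on the horizontal one.

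The fourth comparison asked how the family looked in CCl4 liver after JT003. Against the CCl4 library, 6 of the 32 members with at least 10 counts were called higher, beside 2.41% of all genes, and 2 were called lower, beside 3.21%. The higher ones were the ligands Cxcl1, Cxcl10, Cxcl13, Ccl5 and Ccl21a and the receptor Xcr1, and the lower ones were Ccl9 and Ackr2. Cxcl1 went from 72 to 357 counts, 4.92-fold (3.81 to 6.43; exact binomial test, adjusted p = 1.28e-44). Cxcl13 went from 5 to 59 counts, 11.7-fold (4.75 to 37.4), and Ccl5, a ligand made by T and NK cells, from 11 to 44, 3.97-fold (2.02 to 8.53). Cxcl10 had 33 counts in corn oil, 32 after CCl4 and 76 with JT003, a ratio of 2.36 to CCl4 (1.54 to 3.68). The decoy receptor Ackr2 had 109, 70 and 30, a ratio of 0.43 (0.27 to 0.66). Ccl9 fell from 2496 to 966 counts, 0.38-fold (0.36 to 0.41; exact binomial test, adjusted p = 1.42e-154), which left it near the 741 counts of corn oil. With an assumed coefficient of variation of 0.2 between mice, edgeR's exact test kept the calls of Cxcl1 and Cxcl13, and at 0.4 it kept 0 of the 8.

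Most of these calls depended on which CCl4 counts were used. The authors' comparison table of CCl4 and JT003 holds a CCl4 column whose total is 2.97 times that of the CCl4 library. After subtraction of the CCl4 library 39780549 counts remained, taken here as other CCl4 material because the pooled value was below the library's for only 24 genes and by at most 0.99 counts. Compared with the CCl4 library, these remaining counts were called higher for 5 of 39 members with at least 10 counts, beside 1.74% of all genes, and lower for 0, beside 0.289%. The 5 were Cxcl1 at 3.10-fold, Ccl5 at 4.35-fold, Cxcl13 at 7.73-fold, Cxcl14 at 3.93-fold and Cxcr4 at 2.24-fold. Of these, Cxcl1, Ccl5 and Cxcl13 were also called higher in CCl4 with JT003 over the CCl4 library.

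Against the remaining CCl4 counts, 1 member of 39 was called higher with JT003, beside 1.58% of all genes, and 3 were called lower, beside 4.02%. Of the 8 calls against the CCl4 library, those of Ccl9 and Xcr1 were kept, beside 437 of the 775 calls over all genes, or 56.4%. Ccl9 was at 126.8 CPM in the CCl4 library and 126.0 in the remaining counts after TMM scaling, and JT003 was at 0.39-fold of the latter (log2 -1.36, interval -1.46 to -1.26). Xcr1 with JT003 was 2.62-fold above the remaining counts (log2 1.35, interval 0.85 to 1.94). The log2 ratios of the others were 0.67 for Cxcl1 (0.47 to 0.88), 0.95 for Cxcl10 (0.50 to 1.45), 0.60 for Cxcl13 (0.10 to 1.11), 0.49 for Ccl21a (-0.01 to 1.00), -0.12 for Ccl5 (-0.67 to 0.41) and -0.95 for Ackr2 (-1.61 to -0.40). Conversely Cxcl14 and Cxcr4, which JT003 left within 0.92-fold (0.68 to 1.24) and 0.90-fold (0.56 to 1.43) of the CCl4 library, were called lower against the remaining counts, at 0.24-fold and 0.40-fold.

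**Figure D4:**
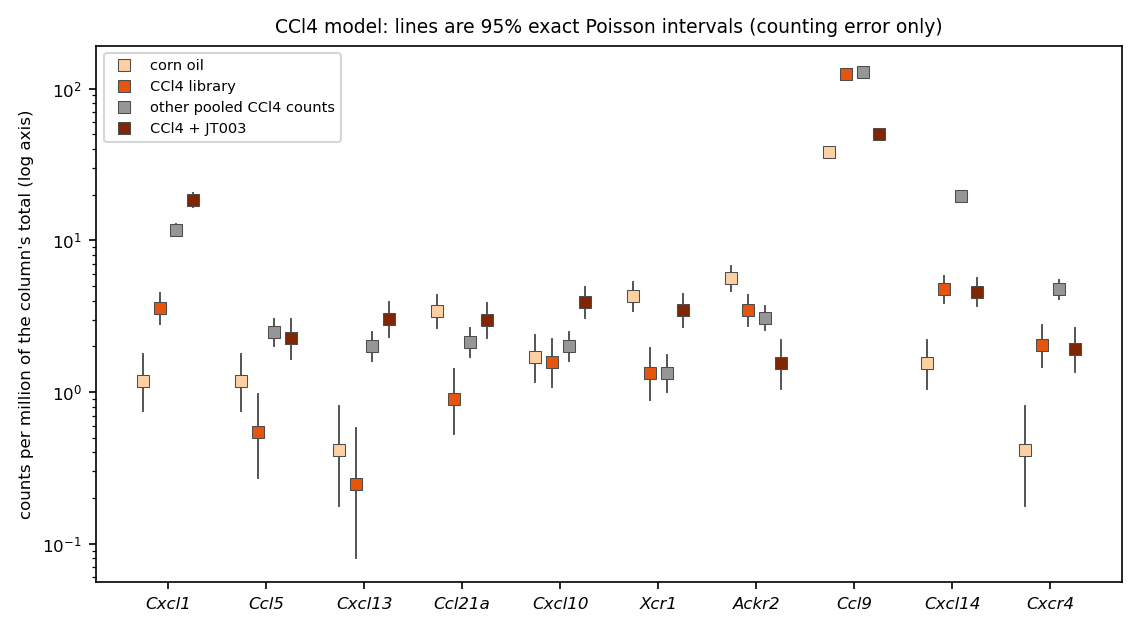
CPM, counts scaled to each column's total (log axis), for 10 members in corn oil, the CCl4 library, the remaining pooled CCl4 counts and CCl4 with JT003, with 95% exact Poisson intervals. For Cxcl1, Ccl5 and Cxcl13 the grey remaining counts, at 11.6, 2.49 and 2.01, lie closer to the JT003 library than to the CCl4 library on the log axis, whereas for Ccl9 and Xcr1 they lie on the CCl4 library.

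Cxcl12 was the member with the most counts and moved alike against both CCl4 references. Its ratio of JT003 to the CCl4 library was 1.39 (1.33 to 1.44) and to the remaining counts 1.47, with log2 ratios of 0.47 (0.42 to 0.53) and 0.56 (0.51 to 0.60), all below the threshold of 1. Summed FPKM of sinusoidal endothelial markers was 57.7 in corn oil, 38.7 in CCl4 alone and 62.2 with CCl4 and JT003, and the list's median log2 ratio was 0.73 for the remaining counts over the CCl4 library, beside -0.07 for Cxcl12. Summed FPKM of stellate cell and myofibroblast markers was 14.2, 53.3 and 30.4 in corn oil, CCl4 alone and CCl4 with JT003. It fell with JT003 while Cxcl12 rose, and the part of either list was not tested. Xcr1 had 83, 27 and 67 counts in the same libraries. Clec9a, a marker of the same dendritic cells as Xcr1, was called lower in CCl4 over corn oil and higher in CCl4 with JT003 over CCl4, at 0.78, 0.38 and 1.52 FPKM, but stood at 0.49 FPKM in SD and 0.91 in HFD, where Xcr1 was lower in HFD.

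Over the remaining counts as the CCl4 reference, 12 of 39 members were called higher than corn oil, beside 8.58% of all genes, and 4 were called lower, beside 3.19%. Of the 10 calls of the CCl4 library 9 were kept, all but Ccl21a at a log2 ratio of -0.97. The share of calls kept over all genes was not counted for this pair. Both comparisons use the same corn oil library, so the kept calls give no independent evidence. The added ones included Ccl2, Ccr1, Cxcl13 and Cxcl16, higher, and Cxcl11 and Ackr2, lower. The remaining counts total 39780549, beside 19374236 to 20184539 in each single library. CCl4 with JT003 over corn oil had 7 of 31 members called higher, beside 4.15% of all genes, and 1 called lower, beside 2.24%. The higher ones included Cxcl1, Cxcl13, Cxcl14, Ccl6, Ccr2 and Cx3cr1, and the lower one was Ackr2 at 0.22-fold (0.14 to 0.34).

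The control libraries of the models also differed from each other, which bears on every ratio to corn oil. Of 31 members, 3 were called higher in corn oil than in SD, beside 2.87% of all genes, and 3 lower, beside 4.18%. Ccl21a (5 counts in SD and 66 in corn oil), Ccl27a (56 and 123), a skin-type CC ligand of Ccr10, and Ackr3 (2 and 19), an atypical receptor for Cxcl12, were higher. Ccl6 (233 and 74) and Cxcl13 (52 and 8) were among the lower ones. Ccl9 (576 and 741) stood at 1.43-fold of SD (1.28 to 1.59) and was not called. Some low-count markers of other tissue were highest in corn oil: Adipoq, an adipocyte hormone, had 11 counts there and at most 1 in any other library, Plin1 had 6 and at most 1, and Retn 5 and at most 1. Cidec, the most abundant gene of the adipocyte list, was called lower in corn oil than in SD, with 1987 and 5423 counts. The lymphatic marker Pdpn had 2 counts in SD and 21 in corn oil, and like Adipoq was called higher in corn oil than in SD, as Ccl21a was. The more abundant genes of the lymph node and lymphatic list went the other way. Prox1 had 944 counts in SD and 485 in corn oil, and Flt4 590 and 290, neither of them called. The list's median log2 ratio was -0.23. Of the 8 sinusoidal endothelial markers, Kdr and Cdh5 were called lower in corn oil than in SD, beside 556 of 17017 genes. Their log2 ratios were -1.55 and -1.29. The part of adipose, lymphatic or endothelial tissue in these values and in the Ccl21a ratio was not tested. Diet, injection and experiment differ between these libraries and cannot be told apart.

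Of the chemokine relatives outside the symbol rule, 7 of 10 symbols were found, and the other 3 are older names of Ackr1, Ackr2 and Ackr4. None of the 7, led by the cytokine Mif, the receptor Gpr182 and the platelet chemokine Pf4, was called in any of the 4 main comparisons. Of the inducers and NF-kB genes 21 of 22 were found, led by Nfkbia, Stat3 and Rela, and Tnf and Il6 stayed below 10 counts everywhere. In HFD over SD 3 of 20 tested were called higher, beside 502 of 16972 genes: Tlr2, a sensor of bacterial lipoproteins, at 0.74 and 1.82 FPKM, Tnfaip3, an NF-kB target that limits the same pathway, at 0.50 and 1.78, and the AP-1 subunit Fos at 0.56 and 2.04. None was called in HFD with JT003 over HFD. The AP-1 subunit Jun alone was called higher in CCl4 over corn oil, from 5.57 to 21.1 FPKM, and the cytokine Il1a alone in CCl4 with JT003 over CCl4, from 0.62 to 1.70. Il1a and Tlr4 were also called higher in the remaining CCl4 counts than in the CCl4 library. The list's median log2 ratios in the 4 comparisons were 0.37, -0.15, 0.24 and 0.02, beside medians between -0.01 and 0.00 over all genes tested.

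Receptor signalling genes, of which 21 were tested and whose leading genes Gnb2, Gnai2 and Gnai3 encode G protein subunits, had 0 calls in either diet comparison by the exact binomial test. In CCl4 over corn oil Dock2 and Elmo1, which together move the leukocyte cytoskeleton, were called higher, from 0.07 to 0.51 and from 0.22 to 1.11 FPKM. Leukocyte adhesion genes were called in both models. In HFD over SD the integrin Itgax was called, from 0.22 to 0.71 FPKM, among 13 genes led by Icam1, Vcam1 and Pecam1. In CCl4 over corn oil 5 of 12 were called higher (Vcam1, Selplg, Itgam, Itgax and Itgb2), beside 827 of the 17234 genes tested, and Selp, a platelet and endothelial selectin, was called lower, and neither JT003 comparison had a call. Of these, Vcam1, Itgam and Itgb2 were also called lower in corn oil than in SD, and stood at 4.85, 0.65 and 3.35 FPKM in SD, 1.57, 0.16 and 0.73 in corn oil and 3.99, 0.65 and 2.53 in CCl4.

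Interferon-inducible genes were called higher in HFD over SD, as Cxcl9 and Cxcl10 were. In HFD over SD 8 of 14 were called higher and 0 lower, beside 502 and 422 of the 16972 genes tested, with a median log2 ratio of 1.12, and Iigp1, Irgm1 and Irf7 were the most abundant of them. Iigp1, a GTPase that attacks parasite vacuoles, was at 58.8 FPKM in SD, 143.9 in HFD and 163.4 in HFD with JT003. In the CCl4 model it was at 62.6, 66.5 and 100.8 FPKM, and 1 of 14 genes was called in CCl4 over corn oil, with a list median of -0.14. In HFD with JT003 over HFD 1 was called higher, Gbp2, and in CCl4 with JT003 over CCl4 3 were, Ifit1, Ifit3 and Gbp3, with list medians of -0.01 and 0.56, beside 131 of 17089 and 332 of 17393 genes called higher. From HFD to HFD with JT003, Gbp3 went from 166 to 304 counts and Isg15 from 247 to 150, and neither was called. The remaining CCl4 counts over the CCl4 library gave a list median of 0.42 with 0 of 14 genes called by the exact binomial test.

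Markers of the cells that make or read chemokines differed between the libraries too. Monocyte and macrophage markers, with Lyz2 and Cd9 among the most abundant, summed to 115.2 FPKM in SD, 131.7 in HFD, 127.6 in HFD with JT003, 62.7 in corn oil, 172.2 in CCl4 alone and 153.2 with CCl4 and JT003. In CCl4 over corn oil 9 of 12 were called higher and 1 lower, beside 827 and 424 of the 17234 genes tested. In corn oil over SD 7 of 12 were called lower, beside 556 of 17017. In HFD over SD 2 were called higher, Ly6c2 and Gpnmb, and Cd9 lower. With JT003, Gpnmb and Trem2 were called lower in the diet model, and Gpnmb and Lgals3 lower in the CCl4 model. Kupffer cell markers, led by Cd5l, Clec4f and Vsig4, summed to 23.3 FPKM in corn oil, 52.8 in CCl4 alone and 119.1 with CCl4 and JT003, and all 7 were called lower in corn oil than in SD. Cd5l and Marco were called higher in CCl4 over corn oil, and Timd4 and Marco in CCl4 with JT003 over CCl4. In the remaining CCl4 counts over the CCl4 library 4 of the 7 (Vsig4, Timd4, Cd5l and Marco) were called higher, with a list median of 1.07, beside 0.82 for JT003 over the CCl4 library. From corn oil to CCl4 the macrophage sum, Ccr2, Cx3cr1, Ccl6 and Ccl9 were all higher. From SD to corn oil the macrophage sum and Ccl6 were lower, whereas Ccl9 was higher, short of a call. From the CCl4 library to CCl4 with JT003 Ccl9 fell, and Ccr2 and Ccl6 did not. Against the remaining CCl4 counts, however, Ccl6 with JT003 was lower, at a log2 ratio of -0.45 (-0.66 to -0.24), short of a call. Ccr2 was at -0.04 (-0.39 to 0.31). The part of the macrophage and Kupffer cell markers in the ratios was not tested.

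**Figure D5:**
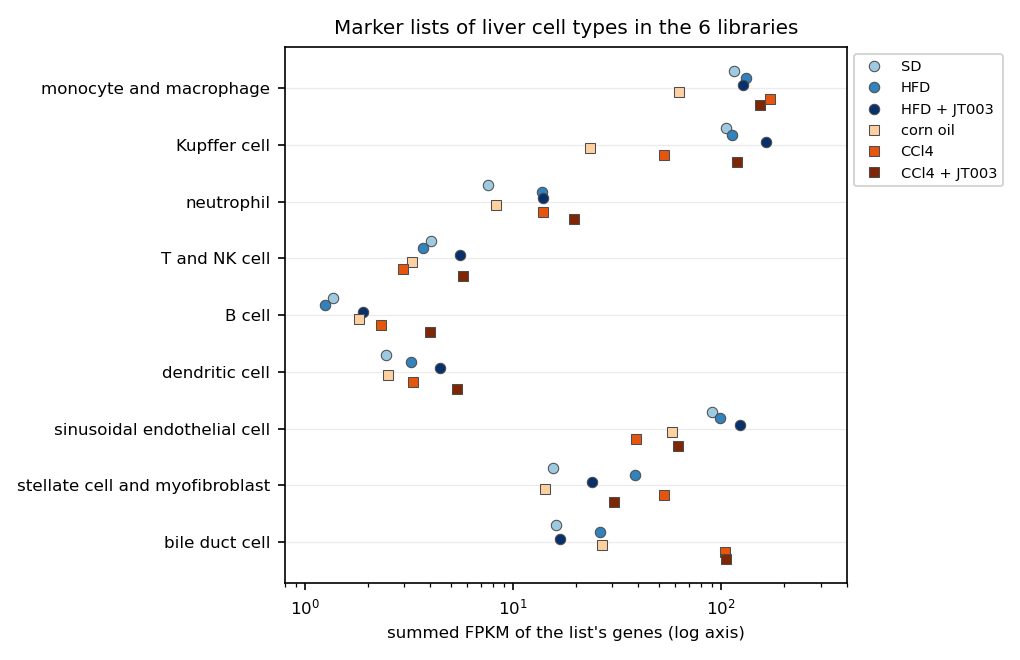
Summed FPKM (log axis) of 9 marker lists of liver cell types, 1 marker per library. Corn oil is the lowest library for macrophage and Kupffer cell markers, at 62.7 and 23.3 FPKM. Both JT003 libraries lie above their untreated model libraries for T and NK cell, B cell and dendritic cell markers. Their median log2 ratios of JT003 over the CCl4 library were 0.99, 0.77 and -0.01, in that order. The remaining CCl4 counts, not plotted, gave medians of 0.82, 0.71 and 0.36 over the CCl4 library.

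Neutrophil markers, led by Ly6g, S100a9 and S100a8, summed to 7.6, 13.7, 13.8, 8.29, 13.9 and 19.7 FPKM in the order SD, HFD, HFD with JT003, corn oil, CCl4 and CCl4 with JT003, with 0 of 10 called in the 4 main comparisons, and the granule genes Camp, Ltf and Mpo stayed below 10 counts everywhere. Cxcl1 was lowest in the same libraries as the sum, SD and corn oil. The leading genes of the list did not all follow the sum. In SD, HFD and HFD with JT003, Ly6g was at 2.62, 5.54 and 8.40 FPKM and S100a8 at 0.55, 1.81 and 1.67. S100a9, at 2.42, 2.87 and 1.88, was lower in HFD with JT003 than in SD. In the remaining CCl4 counts 5 of the 10 neutrophil markers were called higher than in the CCl4 library, beside 253 of 17471 genes, as Cxcl1 was. The part of these markers was not tested. T and NK cell markers, led by Ltb, Nkg7 and Cd4, summed to 4.03, 3.67, 5.57, 3.25, 2.94 and 5.76 FPKM. Prf1 was called lower in HFD over SD and Gzma higher in CCl4 with JT003 over CCl4, as Ccl5 was. Gzma and Cd8a were also called higher in the remaining CCl4 counts than in the CCl4 library, and so was Ccl5. B cell markers, with Cd79a and Cd79b the most abundant, summed to 1.36, 1.25, 1.90, 1.82, 2.32 and 3.98 FPKM with 0 of 6 called in the main comparisons, while Cxcl13 was called in HFD over SD and in CCl4 with JT003 over CCl4. Dendritic cell markers, led by Batf3, Clec9a and Zbtb46, summed to 2.44, 3.22, 4.44, 2.5, 3.31 and 5.36 FPKM, with Itgax called higher in both models and Clec9a as given above.

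Among the non-leukocyte lists, sinusoidal endothelial markers, led by Clec4g, Fcgr2b and Oit3, had Lyve1 called higher in HFD over SD and Kdr and Oit3 lower in CCl4 over corn oil. Stellate cell and myofibroblast markers, led by Col3a1, Col1a1 and Reln, had 4 of 8 called higher in HFD over SD and 2 in CCl4 over corn oil, beside 502 of 16972 and 827 of 17234 genes. With JT003 2 of the 8 were called lower in each model, beside 154 of 17089 genes in the HFD model and 443 of 17393 in the CCl4 model. They summed to 15.6, 38.5, 23.8, 14.2, 53.3 and 30.4 FPKM in library order. Bile duct markers, led by Spp1, Sox9 and Krt19, had 4 of 6 called higher in CCl4 over corn oil, where 827 of 17234 genes were, Sox9 called lower in CCl4 with JT003 over CCl4 and Krt19 called higher in HFD with JT003 over HFD. Hepatocyte markers, led by Alb, Apoa1 and Ttr, had Cps1 called lower in HFD over SD and Tat and Cyp2e1 lower in CCl4 over corn oil. Lymph node and lymphatic markers, led by Prox1, Flt4 and Pdpn, had 0 called in the main comparisons, while Ccl21a was called in both CCl4 comparisons. Pdpn had 21 counts in each of the 3 libraries of the CCl4 model. Adipocyte markers, led by Cidec, Retn and Adipoq, had Cidec, also a lipid droplet gene of fatty hepatocytes, called lower in all 4, with Plin1 and Retn below 10 counts everywhere. Of 4 pancreatic acinar genes found, Cela1 was called higher in HFD over SD and the other 3 stayed below 10 counts in every library.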

How the data were processed

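Livers were profiled by RNA-seq on BGISEQ-500. Per the labels and file headers, the authors deposited 1 table per library with expected counts (estimated reads per gene, as RSEM gives) and FPKM. The submitters' processing notes name HISAT, Bowtie2, RSEM and mm9, without roles or versions. Expected counts were rounded to whole numbers, and 1 row without a gene identifier per diet library, at most 0.000242% of counts, was left out. The 4 deposited comparison tables also hold the authors' fold changes and p-values, which were not used. Of their expression columns only the pooled CCl4 expected counts were read, and the other 7 were not. TMM scaling factors from edgeR 4.0.16 were computed over the 3 libraries of a model, or over all 6 for corn oil over SD. Ratios used a prior count of 2 on the log2 scale, and folds were unshrunken. Tests were two-sided exact conditional binomial tests (scipy 1.17.1) with Clopper-Pearson 95% intervals and Benjamini-Hochberg adjustment. The code was tested on simulated data.

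Members, gene lists and tests were chosen with earlier results of these data known. Members named are those called in a main comparison, the 10 highest by FPKM, and the known receptors or ligands of called members. In each list the 3 genes with the highest mean FPKM were named, with every called gene of the inducer and adhesion lists; other called list genes were named after their values were seen. Coding sequences of all 57 members came from GENCODE M21 and promoters from RefSeq, both on GRCm38, and were used only for sequence. Protein sequences and cysteine classes were not analysed here, and single values of a few genes that the rule names are not reported here. Alternatives covered scaling, filters, thresholds, prior count, an assumed spread between mice, FPKM with a pseudocount, and the pooled CCl4 counts.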

Additional observations from a re-analysis of the deposited data

Results flagged for a closer look

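Cxcl1 went in opposite directions with JT003 in the 2 models. Its log2 ratio was -0.82 in HFD with JT003 over HFD, where it was not called, and 2.27 in CCl4 with JT003 over CCl4, where it was called higher, and the 95% counting intervals of the pair lie on opposite sides of 0. Each value rests on 1 library against 1 library, and the difference between the models was not tested. Against the remaining CCl4 counts the log2 ratio was 0.67, not called.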

How the results depend on the processing

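The members called in HFD over SD, HFD with JT003 over HFD, CCl4 over corn oil, CCl4 with JT003 over CCl4, HFD with JT003 over SD, CCl4 with JT003 over corn oil and corn oil over SD numbered 10, 0, 10, 8, 8, 8 and 6. Restricted to genes with at least 100 counts they numbered 4, 0, 3, 2, 5, 5 and 2, since few members have that many reads. edgeR's exact test called 2, 0, 0, 2, 2, 1 and 1 with an assumed coefficient of variation of 0.2 and 0 in each with 0.4. A fold of at least 1 on the log2 scale of FPKM, with no test, was passed by 4, 0, 5, 5, 3, 4 and 3 members with a pseudocount of 1. With a pseudocount of 0.1 it was passed by 19, 7, 21, 12, 19, 23 and 12. In HFD with JT003 over HFD, 4 members passed without a threshold on the ratio and 2 with the adjusted p up to 0.05. With the pooled CCl4 counts 16 members were called over corn oil and with the remaining counts 16, and for JT003 over the remaining counts 4 were. The log2 ratio of Ccl5 in CCl4 with JT003 over CCl4 was -0.12 (-0.67 to 0.41) against the remaining counts, the reverse of its direction against the CCl4 library. Members that were not called turned as well, among them Ccl6 and Cxcl16. They had 191 and 156 counts in the CCl4 library and 252 and 208 with JT003. Against the remaining counts their log2 ratios were -0.45 (-0.66 to -0.24) and -0.39 (-0.63 to -0.16). Scaling by total reads moved the median of all genes by up to 0.29 relative to TMM and by DESeq2 1.42.0 size factors changed no count of calls. Of 57 members 39 were detected, 46 at a minimum of 5 counts and 29 at 20. The planned filter on protein identity was not run. In its place, members over 80% identical in coding sequence (Ccl21a and Ccl21b) were left out, an alternative chosen after seeing the data, which gave 9 calls in CCl4 over corn oil, 7 in CCl4 with JT003 over CCl4 and 5 in corn oil over SD and the same number in the other comparisons. No paired analysis was possible because each condition has 1 library, and for the same reason no library could be left out. Cxcl2, Ccl2 and Cxcr3 rest on fewer than 50 counts, where depth sets the width of the intervals.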
